A study of Homo sapiens with 18 samples.

Results

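The genes described here carry out antigen presentation by MHC class I molecules, and they were followed across 18 RNA libraries from cell lines treated with a CDK7 inhibitor. They were taken by gene name, with no use of their values in the rule, but with earlier results of these data known. They were the heavy chain genes HLA-B, HLA-C, HLA-E and HLA-F, the light chain gene B2M, the peptide pump genes TAP1 and TAP2, the loading factor gene TAPBP and the immunoproteasome gene PSMB9. All 9 of 9 were among the 26249 genes of each library. The study kept XG1 and AMO1 cells, both labelled as multiple myeloma lines, for 24 h with YKL-5-124, an inhibitor of the transcription and cell cycle kinase CDK7. The groups were XG1 at 1000 nM, XG1 at 100 nM, XG1 in the vehicle DMSO, AMO1 at 1000 nM, AMO1 at 100 nM and AMO1 in DMSO, with 3 replicates each. The labels name no genetic change in either line. They do not say whether replicates were cultured apart, so p-values here reflect only the spread between these samples, which may be technical. RNA was measured with QuantSeq, which reads the 3' end of messenger RNA. Values were deposited as FPKM, by definition a read density scaled to gene length and to library size. Total gene FPKM nevertheless ran from 431965 to 1553906 between libraries, while summed spike-in RNAs stayed level.

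Nearly every nucleated cell shows class I molecules on its surface, each made of a heavy chain, B2M and a short peptide cut from the cell's own proteins. The proteasome cuts the proteins, TAP1 and TAP2 together pump the peptides into the endoplasmic reticulum, and TAPBP (tapasin) holds an empty class I molecule beside the pump until a peptide fits. T cells read HLA-B and HLA-C with their peptides, HLA-C is also a main ligand of natural killer cell receptors, and HLA-E shows leader peptides of other class I chains to natural killer cells. PSMB9 is a catalytic subunit that replaces PSMB6 when the immunoproteasome is assembled, and interferons and NF-kB raise many of these genes in most tissues. In myeloma, as in other blood cancers, class I molecules carry the peptides by which T cells can find the tumour cells.

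The promoters of 8 members, all but HLA-E, were in the RefSeq promoter table (GRCh38.p14) and are shown because most of these genes are known to share elements just upstream of their start. Each line gives the 250 bases before the annotated start, 5′ to 3′ on the gene's own strand. Capitals mark matches, on either strand, to 4 letter patterns: AANNGAAA (the core of IRF-type interferon elements), GGGNNTTNC (kB-type), TGACG (CRE-type) and CCAAT (the CCAAT box).
HLA-B, chr6:31357180-31357429, minus strand: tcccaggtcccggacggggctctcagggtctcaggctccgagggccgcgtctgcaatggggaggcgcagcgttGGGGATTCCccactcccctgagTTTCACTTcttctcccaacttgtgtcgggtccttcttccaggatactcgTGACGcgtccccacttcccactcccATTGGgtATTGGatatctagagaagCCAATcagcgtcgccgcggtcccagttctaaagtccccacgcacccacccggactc
HLA-C, chr6:31272093-31272342, minus strand: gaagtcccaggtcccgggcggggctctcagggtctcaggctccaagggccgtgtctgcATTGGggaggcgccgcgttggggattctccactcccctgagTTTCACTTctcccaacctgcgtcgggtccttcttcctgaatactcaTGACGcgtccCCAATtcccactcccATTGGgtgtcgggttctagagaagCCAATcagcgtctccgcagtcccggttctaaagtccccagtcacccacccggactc
HLA-F, chr6:29723184-29723433, plus strand: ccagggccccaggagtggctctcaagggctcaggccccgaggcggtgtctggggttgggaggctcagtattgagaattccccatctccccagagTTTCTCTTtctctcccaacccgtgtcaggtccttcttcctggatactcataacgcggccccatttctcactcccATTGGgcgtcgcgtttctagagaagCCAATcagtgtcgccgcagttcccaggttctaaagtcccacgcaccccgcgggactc
B2M, chr15:44711267-44711516, plus strand: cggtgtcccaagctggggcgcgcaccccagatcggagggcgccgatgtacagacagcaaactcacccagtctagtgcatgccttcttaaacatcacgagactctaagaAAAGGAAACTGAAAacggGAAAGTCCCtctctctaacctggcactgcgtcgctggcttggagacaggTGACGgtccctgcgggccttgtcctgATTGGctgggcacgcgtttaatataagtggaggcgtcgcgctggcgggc
TAP1, chr6:32853705-32853954, minus strand: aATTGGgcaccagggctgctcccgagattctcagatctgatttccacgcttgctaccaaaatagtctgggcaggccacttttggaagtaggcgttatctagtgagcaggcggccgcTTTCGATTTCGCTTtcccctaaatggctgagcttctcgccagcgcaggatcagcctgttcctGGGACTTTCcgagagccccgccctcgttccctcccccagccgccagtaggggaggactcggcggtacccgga
TAP2, chr6:32838740-32838989, minus strand: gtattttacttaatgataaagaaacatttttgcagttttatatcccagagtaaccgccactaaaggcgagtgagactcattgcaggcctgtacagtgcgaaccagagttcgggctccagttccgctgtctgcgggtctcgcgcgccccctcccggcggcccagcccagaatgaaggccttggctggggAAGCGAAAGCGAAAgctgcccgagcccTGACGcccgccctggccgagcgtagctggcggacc
TAPBP, chr6:33314079-33314328, minus strand: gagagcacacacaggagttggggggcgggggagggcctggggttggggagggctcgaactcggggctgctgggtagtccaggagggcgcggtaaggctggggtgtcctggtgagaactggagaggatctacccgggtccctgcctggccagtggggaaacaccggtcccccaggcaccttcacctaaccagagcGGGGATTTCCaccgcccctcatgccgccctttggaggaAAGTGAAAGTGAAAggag
PSMB9, chr6:32853942-32854191, plus strand: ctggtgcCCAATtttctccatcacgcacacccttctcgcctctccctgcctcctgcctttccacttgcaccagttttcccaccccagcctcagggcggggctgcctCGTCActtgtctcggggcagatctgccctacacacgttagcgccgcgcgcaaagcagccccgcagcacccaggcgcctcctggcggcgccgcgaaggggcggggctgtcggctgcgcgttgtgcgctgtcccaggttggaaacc

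The IRF-type pattern was in 7 of these 8 windows, all but PSMB9, and in 20.3% of all 34788 windows of the same length. In HLA-B, HLA-C and HLA-F it began 155, 151 and 156 bases before the start, and in B2M, TAP1, TAP2 and TAPBP a pair of overlapping matches formed 1 longer run. The kB-type pattern was in HLA-B, B2M, TAP1 and TAPBP (14.2% of all windows), in TAPBP as a pair of matches shifted by 1 base. TGACG was in HLA-B, HLA-C, B2M, TAP2 and PSMB9 (21.2% of all windows), and CCAAT in HLA-B, HLA-C, HLA-F, B2M, TAP1 and PSMB9 (32.0%). The patterns were chosen after the sequences were seen, and a match is a description of letters, not a measured site. TAP1 and PSMB9 lie head to head: their annotated starts are 488 bases apart and the windows printed for them together span the stretch between, so that the CCAAT letters of both are 1 and the same site.

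The libraries labelled XG1 went against that label. In DMSO the summed level of 10 plasma cell markers was 92.9 to 145 FPKM in XG1 and 8319 to 9350 FPKM in AMO1, and 4 of the 10 in XG1 and 1 of the 10 in AMO1 were under 1 FPKM in all DMSO libraries. The plasma cell sum in XG1 came mostly from XBP1 (mean 82.6 FPKM, against 214 FPKM in AMO1) and SDC1 (24.2 FPKM, against 5067 FPKM). The myeloma transcription factor gene IRF4 averaged 0.533 FPKM in XG1 and 77.5 FPKM in AMO1. CD79A alone of the 10 was higher in XG1 (1.19 FPKM, against 0.134 FPKM in AMO1). The sum of 8 erythroid markers was 3445 to 3798 FPKM in XG1 and 5.23 to 6.02 FPKM in AMO1. That of 5 myeloid markers was 69.5 to 98.9 FPKM in XG1 and 0.528 to 1.30 FPKM in AMO1. The myeloid sum in XG1 came mostly from ITGAM (mean 71.7 FPKM) and LYZ (12.2 FPKM), and 3 of the 5 were under 1 FPKM in all XG1 DMSO libraries. The sum of 5 T and NK cell markers was at most 2.47 FPKM in XG1 and 2.20 FPKM in AMO1. XG1 and AMO1 are therefore names of libraries here, and line, cell type and any batch that goes with the line cannot be told apart. Total gene FPKM fell with dose in both lines while summed spike-in RNAs stayed level, so changes were tested on the deposited scale and on a relative scale, after division by median-ratio size factors. On the relative scale the median gene changed by 0.00074 to 0.020 within a line, and differed by 0.17 between the lines in DMSO. Where 1 value is given, it is on the deposited scale. Fewer cells of a type and less RNA per cell cannot be told apart in such samples. AMO1 1000 nM replicate 2 stood apart, with a total of 431965 FPKM beside 686266 and 683618 FPKM in the other AMO1 1000 nM libraries. A gene was tested where at least 3 libraries of the fit reached 1 FPKM, and called at an adjusted p under 0.05 (limma on log2(FPKM + 1), Benjamini-Hochberg over all tested genes). Changes are differences of log2(FPKM + 1) and understate those of low genes.

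In DMSO all 9 members were lower in XG1 than in AMO1, the AMO1 mean being 161 times the XG1 mean for HLA-B and 132 times for HLA-C, but 2.64 times for TAP2 and 2.37 times for TAPBP. The test called 9 of 9 lower on both scales, where 19.8% of all tested genes were lower on the deposited scale and 28.0% on the relative scale. HLA-F passed the filter through AMO1 alone, so it had to differ. The relative-scale differences ran from −7.51 for HLA-B to −1.51 for TAPBP. On the deposited scale the median member differed by −2.73 and the median of all tested genes by 0.42 (log2, XG1 minus AMO1).

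HLA-B stood at 15, 8.99 and 8.02 FPKM in the XG1 DMSO libraries, against 1648, 1802 and 1694 FPKM in the AMO1 DMSO libraries. HLA-C stood at 2.80, 0.861 and 3.59 FPKM in XG1, against 305, 321 and 330 FPKM in AMO1. The lowest AMO1 library of either gene was far above the highest XG1 library, and the XG1 means were 0.622% and 0.758% of the AMO1 means. The differences were −7.25 for HLA-B (SE 0.25, limma adjusted p = 1.11e-13) and −6.65 for HLA-C (SE 0.33, adjusted p = 1.11e-11). The last 300 transcript bases of these genes, where 3' reads fall, are 92.1% identical in the reference transcripts, though they share no stretch of 50 bases, and no pair with HLA-E or HLA-F exceeds 51.2%. How reads were split between HLA-B and HLA-C is not recorded, so their separate levels are uncertain.

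HLA-E, the nonclassical heavy chain that natural killer cells read, stood at 4.82, 4.21 and 4.06 FPKM in XG1 and at 32.9, 40.7 and 30.7 FPKM in AMO1. The groups did not overlap, and the difference of −2.73 (SE 0.26, limma adjusted p = 6.9e-08) was much smaller than that of HLA-B. HLA-F, a nonclassical heavy chain found mostly inside cells, stood at 0.128, 0.127 and 0.155 FPKM in XG1 and at 19.0, 15.8 and 23.6 FPKM in AMO1. Its XG1 DMSO values were 1.08 to 1.10 times the most frequent value of the library, at which 5120 genes are listed, so no fold is given. Its difference of −4.15 (SE 0.29) depends on the added 1 FPKM.

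The light chain differed less than the chains it pairs with. B2M stood at 1144, 1035 and 1252 FPKM in XG1 and at 4262, 4541 and 4650 FPKM in AMO1, so that XG1 held 25.5% of the AMO1 mean (−1.97, SE 0.20, limma adjusted p = 1.79e-07). The ratio of HLA-B to B2M within a library had a geometric mean of 0.00900 in XG1 and 0.382 in AMO1 (log2 difference −5.41). Ratios of different genes carry their lengths and read positions, so only their change between groups can be read.

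The pump subunits differed by unequal amounts. TAP1 stood at 9.11, 7.34 and 10.1 FPKM in XG1 and at 101, 129 and 112 FPKM in AMO1, a difference of −3.55 (SE 0.17, limma adjusted p = 9.63e-12). TAP2 stood at 14.5, 13.6 and 16.4 FPKM in XG1 and at 35.8, 46.4 and 35.4 FPKM in AMO1, a difference of −1.34 (SE 0.17, adjusted p = 2.63e-06). All XG1 libraries lay below all AMO1 libraries for both genes, with XG1 at 7.77% of the AMO1 mean for TAP1 and 37.8% for TAP2. The TAP2 to TAP1 ratio had a geometric mean of 1.68 in XG1 and 0.343 in AMO1 (log2 difference 2.29, exact two-sided permutation p = 0.1, the smallest possible with 3 against 3).

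TAPBP stood at 28.9, 23.0 and 27.4 FPKM in XG1 and at 60.5, 69 and 58.5 FPKM in AMO1, the smallest of the 9 differences at −1.22 (SE 0.16, limma adjusted p = 2.82e-06). PSMB9 stood at 41.7, 37.7 and 50.2 FPKM in XG1 and at 215, 224 and 220 FPKM in AMO1, a difference of −2.33 (SE 0.19, adjusted p = 1.03e-08). Neither gene's groups overlapped. The standard subunits that the immunoproteasome replaces differed less on the deposited scale. PSMB6, the counterpart of PSMB9, differed by −0.72 (SE 0.18, limma adjusted p = 0.00194) and PSMB7 by −0.41 (adjusted p = 0.0596). PSMB5 differed by 0.41 in the other direction (adjusted p = 0.0278). On the relative scale PSMB6 (−1.03, adjusted p = 1.77e-07) and PSMB7 (−0.72, adjusted p = 3.12e-05) were both called lower in XG1. PSMB5 was not called there (0.10, adjusted p = 0.276).

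**Figure D1:**
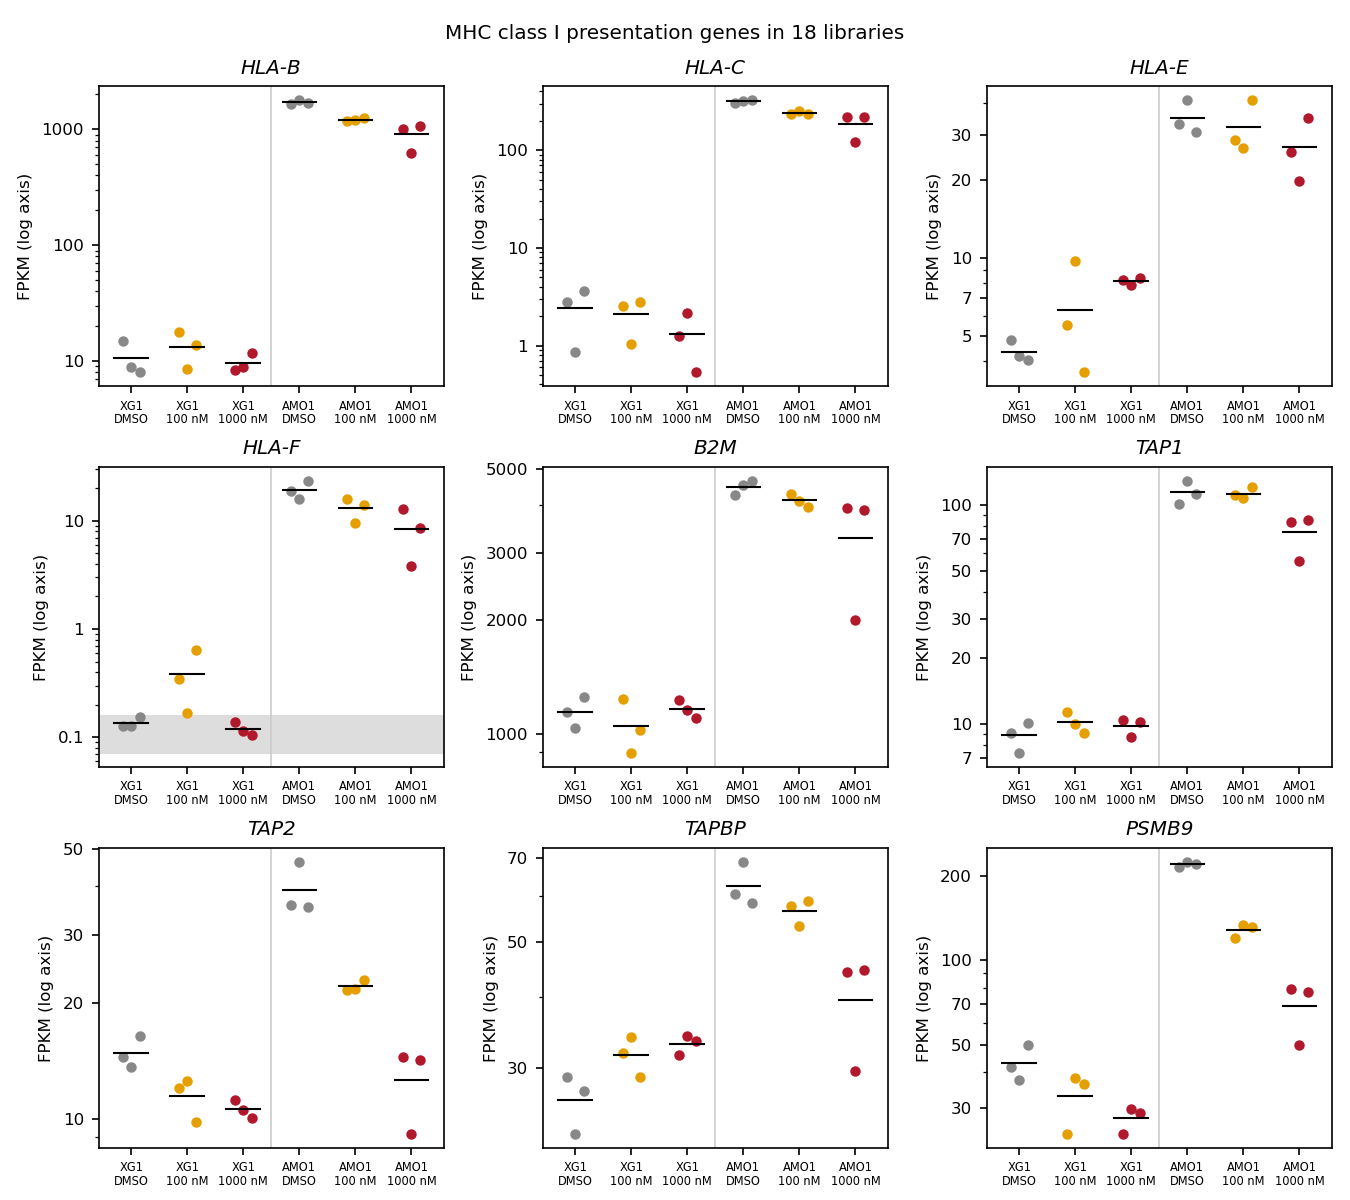
Deposited FPKM (log axes) of the 9 members in each of 18 libraries, by line and dose. Points are libraries and bars group means of 3, and the grey band in the HLA-F panel spans the libraries' most frequent listed values, 0.0711 to 0.158 FPKM. XG1 libraries lie below AMO1 libraries throughout in DMSO, and HLA-B, HLA-C, TAP2 and PSMB9 step down with dose in AMO1.

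Of 35 further class I genes on a fixed list, 30 were tested, of which XG1 was higher for 4 and lower for 18 (3 and 21 on the relative scale), with a median difference of −0.80. Over all tested genes 45.0% were higher and 19.8% lower in XG1 (38.3% and 28.0% on the relative scale). ERAP2, HLA-H, LNPEP, NLRC5 and TAPBPL were not tested in the fit of XG1 and passed the filter here through AMO1. Among the other 25, XG1 was higher for 4 and lower for 14. The other immunoproteasome subunits PSMB8 (15.5 ± 4.16 FPKM in XG1, 250.8 ± 17.8 in AMO1, mean ± SD, n = 3 each) and PSMB10 (46.5 ± 5.70 in XG1, 212 ± 12.3 in AMO1) differed by −3.96 and −2.17. The class I pseudogene HLA-H averaged 0.269 FPKM in XG1 and 42.0 FPKM in AMO1 (−5.08). NLRC5, the transactivator of class I genes, averaged 0.185 ± 0.0485 FPKM in XG1 and 4.04 ± 0.453 FPKM in AMO1 (−2.08, given as a description, as for HLA-H). The interferon pathway factor IRF1 differed by −0.72, and ERAP1, which trims peptides in the endoplasmic reticulum, by −0.94. In the other direction FCGRT, the class I-like receptor that recycles antibodies, averaged 44.6 ± 6.32 FPKM in XG1 and 6.58 ± 0.661 FPKM in AMO1 (2.58, SE 0.18). The class II genes moved with them, with the summed level of 5 at 1.44 to 3.89 FPKM in XG1 and 994 to 1153 FPKM in AMO1, and the part of the low plasma cell markers in these differences was not tested.

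**Figure D2:**
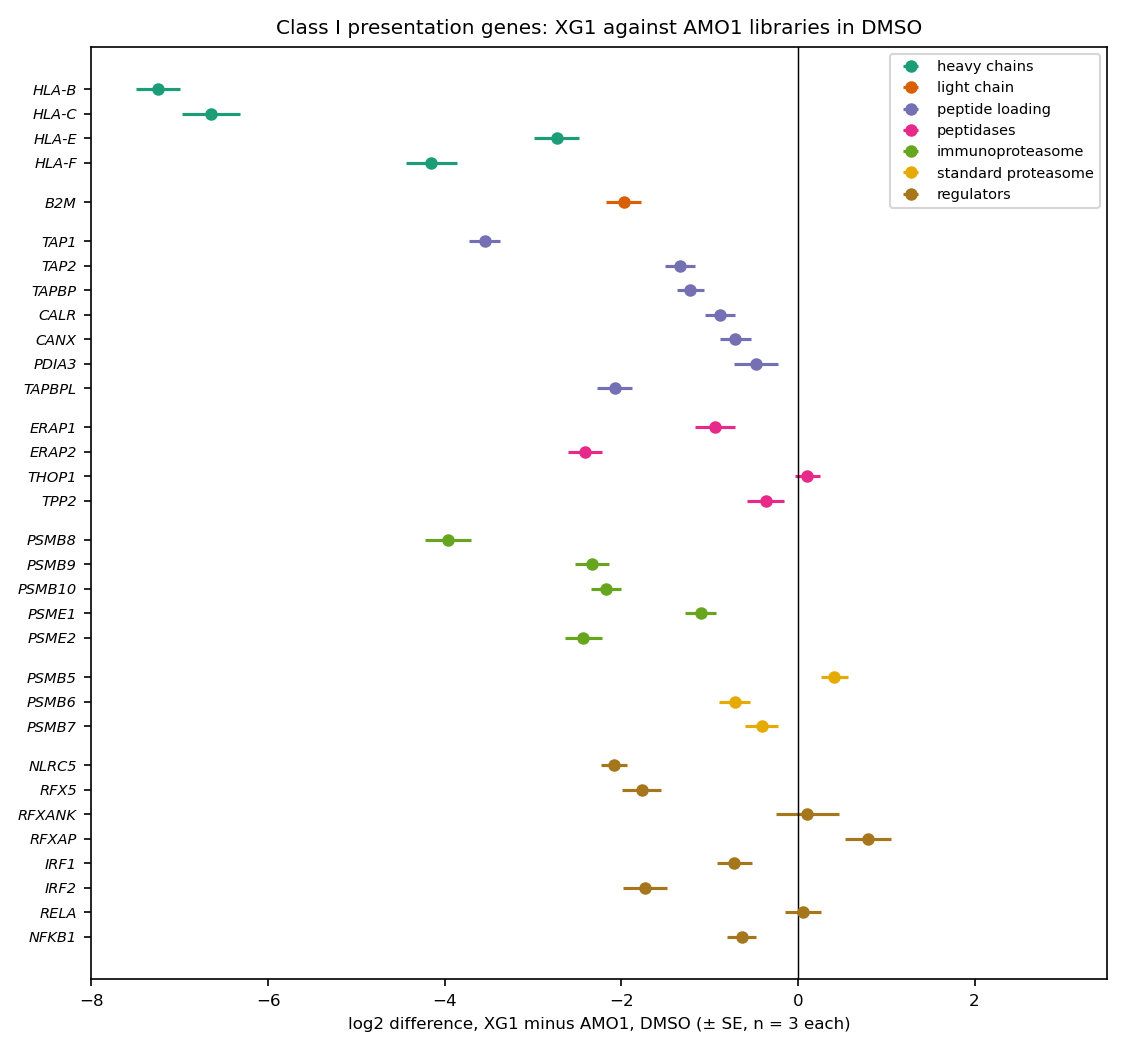
Difference of log2(FPKM + 1), XG1 minus AMO1 in DMSO (horizontal axis, points with SE, n = 3 libraries each), for the tested members and other class I genes, coloured by role. HLA-B and HLA-C lie furthest to the left at −7.25 and −6.65. The standard proteasome subunits lie between −0.72 and 0.41 on this, the deposited scale.

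In AMO1, 1000 nM YKL-5-124 lowered 7 of the 9 members on the deposited scale, but on the relative scale 4 members rose and 2 fell. On the deposited scale 65.7% of all tested genes fell, with a median of −0.77, and the members' median was −0.82. On the relative scale 24.0% of all genes were higher and 24.2% lower, and the members' median was 0.16. TAP2 and PSMB9 fell on both scales, to 32.1% and 31.3% of their DMSO means.

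PSMB9 stood at 79.2, 50.2 and 77.0 FPKM in AMO1 at 1000 nM, against 220 ± 4.49 FPKM in DMSO (mean ± SD, n = 3). It fell by 1.69 (SE 0.21, limma adjusted p = 1.25e-05) and by 0.72 relative to the median gene (SE 0.067, adjusted p = 2.55e-05). TAP2 stood at 14.5, 9.12 and 14.2 FPKM at 1000 nM, against 39.2 ± 6.20 FPKM in DMSO, and fell by 1.58 (SE 0.21, adjusted p = 2.66e-05; by 0.65 on the relative scale, adjusted p = 0.000127). In both genes every treated library lay below every DMSO library, and replicate 2 was the lowest.

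The other subunit of the pump fell less on the deposited scale and did not fall on the relative scale. TAP1 stood at 83.8, 55.5 and 85.6 FPKM in AMO1 at 1000 nM, against 114 ± 14.1 FPKM in DMSO. It fell by 0.62 on the deposited scale (SE 0.21, limma adjusted p = 0.0191) and was 0.35 above the median gene (SE 0.069, adjusted p = 0.00231). TAPBP stood at 44.2, 29.6 and 44.6 FPKM at 1000 nM, against 62.7 ± 5.58 FPKM in DMSO, with a fall of 0.67 (adjusted p = 0.0102) and a relative rise of 0.29 (adjusted p = 0.00773). The deposited-scale calls were lost without AMO1 DMSO replicate 2 for both genes (adjusted p = 0.0923 for TAP1 and 0.0516 for TAPBP) and without AMO1 DMSO replicate 3 for TAP1 (0.0517).

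The classical heavy chains fell about as far as the median gene. HLA-B stood at 1010, 627 and 1074 FPKM in AMO1 at 1000 nM, against 1715 ± 79.0 FPKM in DMSO, and fell by 0.96 (SE 0.21, limma adjusted p = 0.00113). HLA-C stood at 218, 122 and 219 FPKM at 1000 nM, against 319 ± 12.5 FPKM in DMSO, and fell by 0.82 (SE 0.23, adjusted p = 0.00566). Their relative-scale changes were 0.020 (SE 0.061, adjusted p = 0.805) and 0.16 (SE 0.084, adjusted p = 0.151). HLA-F stood at 12.8, 3.83 and 8.68 FPKM at 1000 nM, against 19.5 ± 3.90 FPKM in DMSO, and fell by 1.23 (SE 0.32, adjusted p = 0.00399), with a relative change of −0.34 (adjusted p = 0.351).

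HLA-E and B2M were the members that did not pass on the deposited scale and both rose on the relative scale. HLA-E stood at 25.8, 19.9 and 35.0 FPKM in AMO1 at 1000 nM, against 34.8 ± 5.26 FPKM in DMSO, with overlapping groups (−0.38, SE 0.24, limma adjusted p = 0.169; relative 0.57, SE 0.16, adjusted p = 0.0138). B2M stood at 3949, 2003 and 3892 FPKM at 1000 nM, against 4484 ± 200.3 FPKM in DMSO (−0.52, SE 0.23, adjusted p = 0.0607; relative 0.47, SE 0.11, adjusted p = 0.00507). The treated B2M libraries all lay below the DMSO libraries, with replicate 2 far below the others. Without AMO1 1000 nM replicate 2 the relative scale still called 4 members higher and 2 lower, with HLA-E at 0.56 (adjusted p = 0.0366) and B2M at 0.58 (adjusted p = 0.00168).

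**Figure D3:**
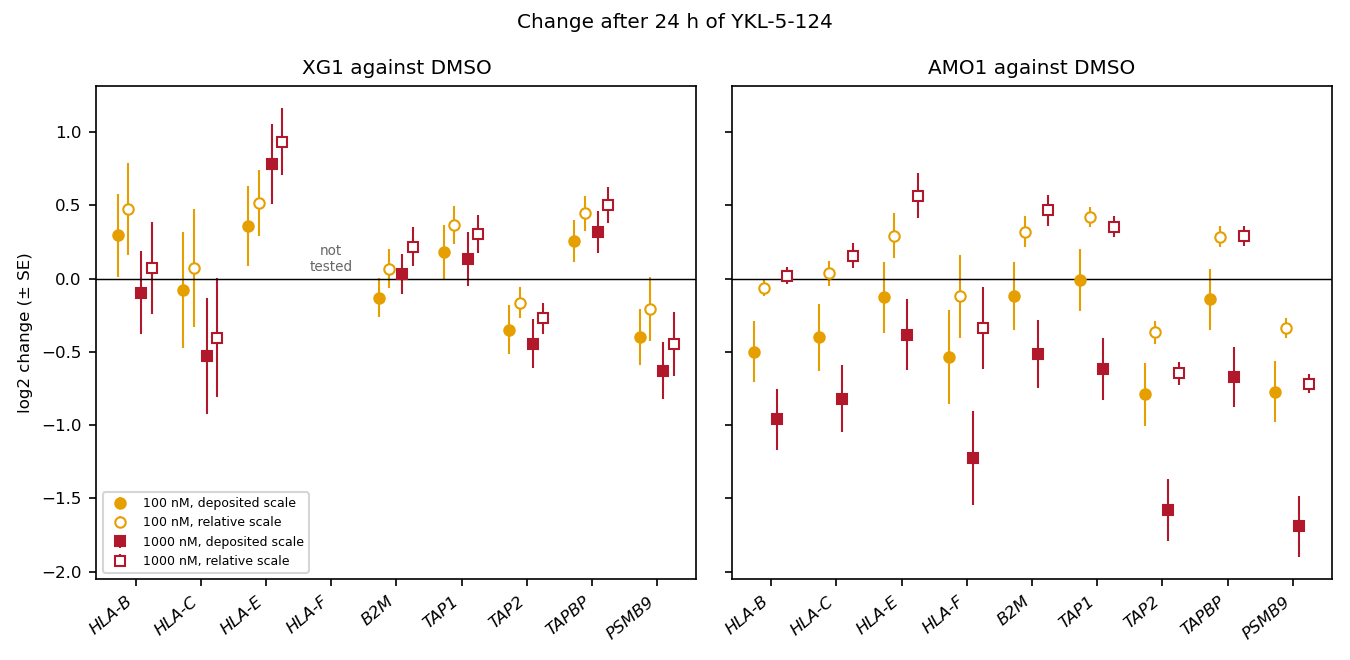
Change of each member against DMSO (log2, points with SE, n = 3 libraries a group) at 100 nM and 1000 nM, on the deposited scale (filled) and the relative scale (open). HLA-F was not tested in XG1. In AMO1 at 1000 nM, HLA-E, B2M, TAP1 and TAPBP lie below 0 on the deposited and above 0 on the relative scale, while TAP2 and PSMB9 lie below 0 on both.

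At 100 nM the same pair, TAP2 and PSMB9, fell in AMO1. They were the 2 members of 9 called on the deposited scale, where 29.5% of all genes fell and the median gene changed by −0.35. That count was thus no higher than the share of all genes. On the relative scale 3 members were higher (14.0% of all genes) and 2 lower (17.1%). PSMB9 stood at 121, 134 and 132 FPKM at 100 nM, below every DMSO library, and fell by 0.77 (SE 0.21, limma adjusted p = 0.0128; by 0.34 on the relative scale, adjusted p = 0.00451). TAP2 stood at 21.6, 21.7 and 22.9 FPKM at 100 nM and fell by 0.79 (SE 0.21, adjusted p = 0.0126; by 0.37 on the relative scale, adjusted p = 0.00634). These libraries also lay below all those in DMSO, at 56.3% of the mean. Both deposited-scale calls were lost without AMO1 DMSO replicate 2 (adjusted p = 0.0731 for TAP2 and 0.0572 for PSMB9), and that of PSMB9 without AMO1 100 nM replicate 1 (0.0633).

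TAP1 did not pass on the deposited scale at 100 nM. It stood at 111, 107 and 120 FPKM, within the range of the DMSO libraries (−0.011, SE 0.21, limma adjusted p = 0.974), and was 0.42 above the median gene (SE 0.069, adjusted p = 0.00155). TAPBP at 57.7, 53.1 and 58.8 FPKM (−0.14; relative 0.29, adjusted p = 0.013) and B2M at 4301, 4115 and 3967 FPKM (−0.12; relative 0.32, adjusted p = 0.0453) were likewise called on the relative scale alone. HLA-B, at 1177, 1204 and 1258 FPKM, lay below every DMSO library without passing (−0.50, SE 0.21, adjusted p = 0.0818; relative −0.062). HLA-C, at 235, 251 and 237 FPKM, did the same (−0.40, adjusted p = 0.192; relative 0.036). HLA-E, at 28.6, 26.6 and 41.0 FPKM, and HLA-F, at 16.1, 9.63 and 14.0 FPKM, overlapped with DMSO (−0.13 and −0.53, adjusted p = 0.705 and 0.217).

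Between the AMO1 doses, 1000 nM was lower than 100 nM for PSMB9 (by 0.92, SE 0.21, limma adjusted p = 0.0131) and TAP2 (by 0.79, SE 0.21, adjusted p = 0.0236). These 2 of 9 members were near the share of 23.4% of all genes. On the relative scale PSMB9 alone was called (−0.38, adjusted p = 0.0124; TAP2 −0.28, adjusted p = 0.0703), 1 of 9 beside 4.23% of all genes lower. The deposited-scale calls depended on single libraries. Both were lost without AMO1 100 nM replicate 2 (adjusted p = 0.053 for PSMB9 and 0.0709 for TAP2) or replicate 3 (0.0555 and 0.078), and that of TAP2 without replicate 1 (0.0635). TAP1, not called at 100 nM on that scale, was lower at 1000 nM than at 100 nM by a value just outside the threshold (−0.61, SE 0.21, adjusted p = 0.0515; relative −0.067). The call of TAP2 was also lost with no filter (adjusted p = 0.0667). HLA-F (−0.69), TAPBP (−0.53), HLA-B (−0.46), HLA-C (−0.42), B2M (−0.40) and HLA-E (−0.26) did not pass (limma adjusted p from 0.0694 to 0.399).

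In XG1 at 1000 nM 1 of 8 tested members fell on the deposited scale, PSMB9, near the share of 13.2% of all genes. On the relative scale 2 of 8 rose, HLA-E and TAPBP, beside 9.57% of all genes. At an unadjusted p under 0.05 (limma) 2 members were higher and 2 lower on the deposited scale. The relative scale gave 3 higher and 1 lower at that threshold. PSMB9 stood at 24.2, 29.6 and 28.7 FPKM in XG1 at 1000 nM, against 43.2 ± 6.39 FPKM in DMSO. The groups did not overlap, and the fall of 0.63 (SE 0.19, limma adjusted p = 0.0458) was lost on the relative scale (−0.44, SE 0.22, adjusted p = 0.187) with no filter (adjusted p = 0.112) and without any single one of the 6 libraries compared (adjusted p from 0.057 to 0.166). TAP2 also lay below DMSO in every library, at 11.2, 10.5 and 10.1 FPKM against 14.8 ± 1.42 FPKM, without passing (−0.45, SE 0.17, adjusted p = 0.0909; relative −0.27, adjusted p = 0.102).

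HLA-E stood at 8.28, 7.89 and 8.40 FPKM in XG1 at 1000 nM, against 4.36 ± 0.400 FPKM in DMSO, 188% of the DMSO mean with no overlap. Its change of 0.78 (SE 0.27, limma adjusted p = 0.0732) missed the threshold on the deposited scale and passed it on the relative scale (0.93, SE 0.23, adjusted p = 0.018). TAPBP stood at 31.6, 34.1 and 33.6 FPKM at 1000 nM, against 26.4 ± 3.08 FPKM in DMSO, again without overlap (0.32, SE 0.14, adjusted p = 0.153; relative 0.50, SE 0.12, adjusted p = 0.0179). RGL2, whose annotated span overlaps that of TAPBP, averaged 15.3 ± 3.23 FPKM at 1000 nM and 10.8 ± 1.01 FPKM in DMSO in XG1. Its part in the TAPBP value was not tested.

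The other members of XG1 overlapped between 1000 nM and DMSO. TAP1 stood at 10.4, 8.70 and 10.2 FPKM (0.13, SE 0.18, limma adjusted p = 0.677; relative 0.30) and B2M at 1233, 1159 and 1106 FPKM (0.031, SE 0.14, adjusted p = 0.908; relative 0.22). HLA-B, at 8.38, 8.88 and 11.7 FPKM, differed by −0.098 (SE 0.28, adjusted p = 0.856; relative 0.072), and HLA-C, at 1.25, 2.14 and 0.533 FPKM, by −0.53 (SE 0.40, adjusted p = 0.41; relative −0.40). The SD of HLA-C at 1000 nM was 61.5% of its mean. HLA-F, at 0.140, 0.115 and 0.104 FPKM, was 1.06 to 1.09 times the most frequent listed value and was not tested.

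At 100 nM 0 of 8 members were called in XG1 on the deposited scale, with 0 at an unadjusted p under 0.05 (limma), beside 12.5% of all genes called in either direction. TAPBP was called higher on the relative scale, 1 of 8 beside 7.31% of all genes. TAPBP stood at 31.9, 34.0 and 29 FPKM, above every DMSO library (0.25, SE 0.14, adjusted p = 0.265; relative 0.44, SE 0.12, adjusted p = 0.0378), and its relative call was lost without XG1 100 nM replicate 2 (adjusted p = 0.0605). TAP2 stood at 12.0, 12.5 and 9.84 FPKM, below every DMSO library (−0.35, SE 0.17, adjusted p = 0.19; relative −0.17). PSMB9, at 24.1, 38.4 and 36.3 FPKM, overlapped with DMSO through 1 library (−0.40, SE 0.19, adjusted p = 0.195; relative −0.21).

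The remaining members were variable at 100 nM in XG1. HLA-E stood at 5.54, 9.72 and 3.63 FPKM, with replicate 2 above all other XG1 libraries and replicate 3 below them (0.36, SE 0.27, limma adjusted p = 0.414; relative 0.52). HLA-B stood at 17.8, 8.6 and 13.7 FPKM and HLA-C at 2.57, 1.04 and 2.78 FPKM, both overlapping with DMSO. Replicate 2 was the lowest for both. It was also the lowest for most plasma cell markers, such as SDC1 (37.6, 11.7 and 43.6 FPKM) and JCHAIN (13.7, 1.72 and 8.57 FPKM). PRDM1, POU2AF1 and CD79A were not lowest there. The source of the low HLA-B and HLA-C levels in XG1 was not tested. TAP1, at 11.4, 10.0 and 9.10 FPKM, and B2M, at 1236, 891 and 1027 FPKM, also overlapped. HLA-F was listed at 0.349, 0.168 and 0.635 FPKM, the highest of its XG1 values, still under 1 FPKM. These were 3.33, 1.06 and 5.32 times the most frequent value of each library. Between the XG1 doses 0 of 8 members were called on either scale, with 0 at an unadjusted p under 0.05 on both (limma), beside 0.39% of all genes on the deposited and 0.974% on the relative scale. The member differences, 1000 nM minus 100 nM, were −0.45 for HLA-C, −0.39 for HLA-B, −0.23 for PSMB9, −0.097 for TAP2, −0.049 for TAP1, 0.065 for TAPBP, 0.16 for B2M and 0.42 for HLA-E.

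The order of the 6 groups by mean level put the AMO1 groups above the XG1 groups for 8 members, with AMO1 in DMSO highest and 1000 nM lowest of the 3 in each. TAP2 was the exception, in which AMO1 at 1000 nM (12.6 ± 3.0 FPKM) ranked below XG1 in DMSO (14.8 ± 1.42 FPKM), with overlapping ranges. For TAPBP and PSMB9 the ranges of AMO1 at 1000 nM and the highest XG1 group overlapped as well. XG1 groups next to each other in the order overlapped, except for HLA-F and TAPBP, in which 100 nM lay above DMSO. For TAP2, AMO1 at 1000 nM ranked between XG1 in DMSO (13.6 to 16.4 FPKM) and XG1 at 100 nM (9.84 to 12.5 FPKM). Those 2 XG1 groups did not overlap. For HLA-F the lowest 100 nM library, at 0.168 FPKM, was 1.06 times the most frequent value of its library. The DMSO libraries stood at 1.08 to 1.10 times theirs, so that separation of HLA-F cannot be read as a rise.

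The response to 1000 nM differed between the lines for 6 of 9 members on the deposited scale, all higher in XG1 minus AMO1, where 32.8% of all genes were higher and the median gene differed by 0.55. The values were 1.20 for HLA-F (SE 0.41, limma adjusted p = 0.03), 1.16 for HLA-E (SE 0.36, 0.0213), 1.13 for TAP2 (SE 0.24, 0.00221), 1.06 for PSMB9 (SE 0.27, 0.00673), 0.99 for TAPBP (SE 0.22, 0.00295) and 0.75 for TAP1 (SE 0.25, 0.0255). HLA-F stood near the most frequent listed value in XG1 at both ends of this comparison. It passed the filter through AMO1 alone, so its value carries the AMO1 change alone. Of the 8 members tested in both lines, 5 passed. HLA-B (0.86, SE 0.36, adjusted p = 0.069), B2M (0.55, SE 0.28, 0.144) and HLA-C (0.29, SE 0.46, 0.657) did not pass. TAP2 was the 1 member that differed on the relative scale (0.34, SE 0.11, adjusted p = 0.0368), beside 8.46% of all genes higher, and that call was lost without AMO1 1000 nM replicate 2 (adjusted p = 0.0641). The deposited-scale calls of TAP2, TAPBP and PSMB9 remained without any single library (highest adjusted p = 0.00877, 0.0113 and 0.0219). Those of HLA-E, HLA-F and TAP1 did not. HLA-E was lost without AMO1 DMSO replicate 2 (adjusted p = 0.0592) or AMO1 1000 nM replicate 2 (0.0599), TAP1 without XG1 DMSO replicate 2 (0.0751), XG1 1000 nM replicate 1 (0.0583) or 3 (0.0515) or AMO1 DMSO replicate 2 (0.0732). HLA-F was lost without XG1 DMSO replicate 1 (0.0524) or 2 (0.0563), XG1 1000 nM replicate 1 (0.0551), AMO1 DMSO replicate 3 (0.072) or AMO1 1000 nM replicate 2 (0.0713). With no filter the calls of HLA-E (adjusted p = 0.051) and HLA-F (0.0811) were lost, and with a pseudocount of 0.1 that of HLA-F (0.1). At 100 nM 0 of 9 members differed between the lines on either scale, with 1 on the deposited scale (HLA-B, 0.79, SE 0.36) and 0 on the relative scale at an unadjusted p under 0.05 (limma), beside 6.23% and 9.56% of all genes called in either direction. The other differences at 100 nM were 0.80 for HLA-F, 0.49 for HLA-E, 0.44 for TAP2, 0.40 for TAPBP, 0.37 for PSMB9, 0.32 for HLA-C, 0.20 for TAP1 and −0.011 for B2M.

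Because the 2 scales differ, ratios of members within a library were also compared, which no scaling can change. The ratios were chosen after the values had been seen. The TAP2 to TAP1 ratio was 0.173, 0.164 and 0.166 in AMO1 at 1000 nM and 0.195, 0.202 and 0.191 at 100 nM, against 0.355, 0.359 and 0.317 in DMSO. In XG1 it was 1.07, 1.21 and 0.986 at 1000 nM and 1.05, 1.25 and 1.08 at 100 nM, against 1.59, 1.85 and 1.62 in DMSO. Every treated library of either line and dose lay below every DMSO library of its line. The log2 changes were −1.03 and −0.81 in AMO1 and −0.63 and −0.58 in XG1 at 1000 nM and 100 nM, each with an exact two-sided permutation p = 0.1, the smallest possible with 3 against 3, and 0.125 adjusted over the 20 ratio tests.

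The genes of the head-to-head pair moved apart in the same way. The PSMB9 to TAP1 ratio was 0.945, 0.905 and 0.899 in AMO1 at 1000 nM and 1.09, 1.24 and 1.10 at 100 nM, against 2.13, 1.74 and 1.96 in DMSO. In XG1 it was 2.32, 3.41 and 2.81 at 1000 nM and 2.12, 3.84 and 3.99 at 100 nM, against 4.58, 5.14 and 4.96 in DMSO. Treated and DMSO libraries again did not overlap, with log2 changes of −1.08 and −0.76 in AMO1 and −0.80 and −0.62 in XG1 (exact permutation p = 0.1 each, 0.125 adjusted). In the printed windows the TAP1 side holds the IRF-type and kB-type letters and the PSMB9 side neither. The annotated starts are 488 bases apart, so the letters on the TAP1 side lie between both genes, beyond the end of the PSMB9 window. Whether they have a part in the ratio change was not tested. Both ratios share TAP1, so they are not independent of each other.

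The annotated span of TAP1 overlaps that of PSMB8-AS1, a long noncoding RNA gene. PSMB8-AS1 averaged 6.19 ± 2.73 FPKM in AMO1 at 1000 nM and 9.23 ± 0.548 FPKM at 100 nM, against 25.3 ± 2.36 FPKM in DMSO. In XG1 it averaged at most 1.15 FPKM in any group. The labels do not state a stranded count, so the overlapping genes may share reads, and the part of PSMB8-AS1 in the TAP1 values was not tested. HLA-F-AS1, which overlaps HLA-F, averaged between 0.452 and 1.09 FPKM in all groups.

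For the other ratios, groups were apart in AMO1 and overlapped in XG1, and the difference between the lines was not tested. HLA-B to B2M, a heavy chain against the light chain, was 0.256, 0.313 and 0.276 in AMO1 at 1000 nM, against 0.387, 0.397 and 0.364 in DMSO (log2 −0.45), and −0.38 at 100 nM, without overlap in either case (exact permutation p = 0.1 each). In XG1 the ratio overlapped with DMSO at both doses. PSMB9 to PSMB6, the immunoproteasome subunit against the one it replaces, was 0.412, 0.455 and 0.395 in AMO1 at 1000 nM, against 0.586, 0.545 and 0.522 in DMSO (log2 −0.39, exact permutation p = 0.1). In XG1 it overlapped at both doses (−0.40 and −0.12, exact permutation p = 0.2 and 0.8).

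**Figure D4:**
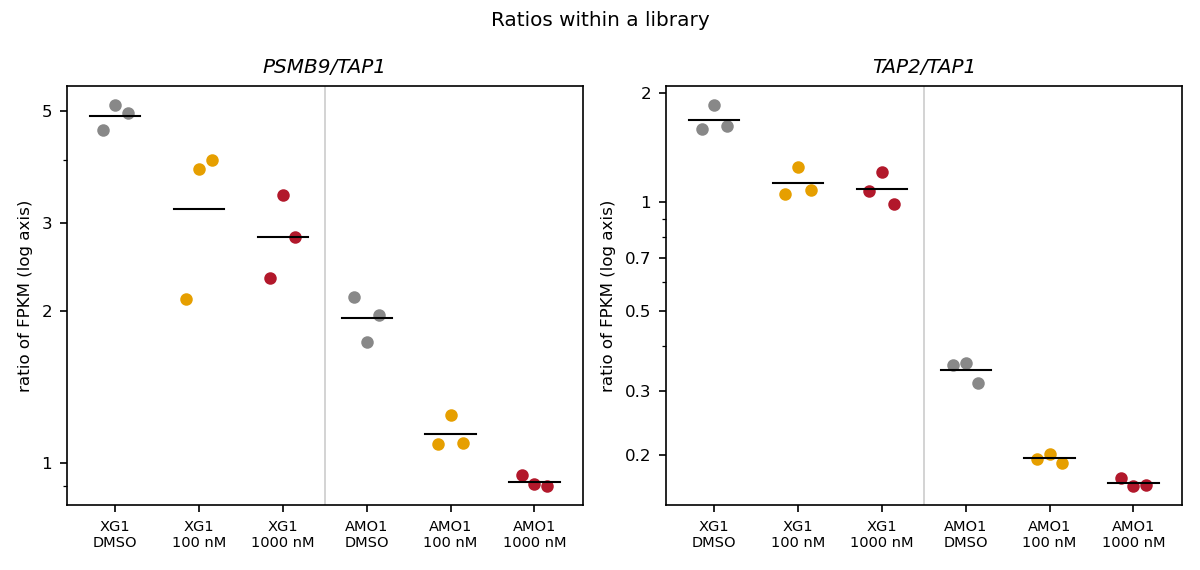
Ratio of FPKM within each library (log axes) for PSMB9 to TAP1 and TAP2 to TAP1, by line and dose. Points are libraries and bars geometric means of 3. In each line all treated libraries lie below all DMSO libraries, with TAP2 to TAP1 at 0.164 to 0.202 in treated AMO1 libraries and 0.317 to 0.359 in AMO1 DMSO libraries.

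Among the other class I genes of AMO1 at 1000 nM, 0 of 30 rose and 21 fell on the deposited scale (limma, with 0 higher at an unadjusted p under 0.05), beside the 65.7% of all genes that fell. Relative values were higher for 9 and lower for 8, beside 24.0% and 24.2% of all genes. The other inducible proteasome genes fell with PSMB9 on both scales: PSMB10 to 64.5 ± 17.4 FPKM against 212 ± 12.3 in DMSO (−1.74, relative −0.76), PSMB8 to 87.6 ± 27 FPKM against 250.8 ± 17.8 (−1.55, relative −0.58) and the proteasome activator PSME2 to 114 ± 38.2 FPKM against 337 ± 23.9 (−1.61, relative −0.63). The standard subunits PSMB5, PSMB6 and PSMB7 fell too, by 1.39, 1.31 and 1.32 (by 0.41, 0.33 and 0.34 on the relative scale). HSPA5, the main chaperone of the endoplasmic reticulum (−2.15, relative −1.17), and THOP1, a cytosolic peptidase that destroys peptides (−1.87, relative −0.92), fell furthest on the list. MICB, a stress ligand of natural killer cells, fell by 1.72 (by 0.87 on the relative scale). The regulators IRF1 (−0.14; relative 0.77) and NLRC5 (−0.16; relative 0.62) and the peptidase ERAP1 (−0.28; relative 0.52) were called on the relative scale alone, where they were higher.

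At 100 nM in AMO1 the list showed 0 higher and 8 lower of 30 (limma, 0 higher at an unadjusted p under 0.05), beside 29.5% of all genes lower, and 6 and 6 on the relative scale, beside 14.0% and 17.1%. The lower count on the deposited scale was thus near the share of all genes. MICB (−1.12), HSPA5 (−1.02), PSMB10 (−0.95), THOP1 (−0.92), PSME2 (−0.82) and PSMB8 (−0.79) fell, while IRF1 (0.30; relative 0.70), ERAP1 (0.23; relative 0.59) and NLRC5 (0.12; relative 0.46) rose on the relative scale alone. Between the AMO1 doses 9 were lower at 1000 nM (2 on the relative scale, HSPA5 and THOP1) and 0 higher (limma, 0 at an unadjusted p under 0.05 on the deposited scale), beside 23.4% of all genes lower (4.23% on the relative scale). HSPA5 (−1.13), THOP1 (−0.95), PSMB10 (−0.79), PSME2 (−0.78), PSMB8 (−0.76) and the NF-kB subunit NFKB1 (−0.65) were among them. ERAP1 (−0.51), IRF1 (−0.44) and NLRC5 (−0.28) did not pass.

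In XG1 at 1000 nM 1 of 25 listed genes was higher, beside 3.69% of all genes, and 3 were lower, beside 13.2%. The relative scale gave 4 higher and 3 lower, beside 9.57% and 10.3% of all genes. The chaperones CALR (246 ± 34.4 FPKM against 454 ± 44.5 in DMSO, −0.89), HSPA5 (184 ± 3.74 FPKM against 294 ± 24.3, −0.67) and CANX (78.2 ± 5.67 FPKM against 123 ± 12.3, −0.65) fell, and MR1, a class I-like molecule that shows vitamin metabolites, rose (7.44 ± 0.571 FPKM against 4.27 ± 0.638, 0.69, limma adjusted p = 0.0493). PSMB8 (−0.54, adjusted p = 0.21), ERAP1 (−0.43), the proteasome activator PSME1 (−0.39) and IRF1 (−0.35) did not pass. At 100 nM HSPA5 (−0.81), CALR (−0.65) and CANX (−0.60) were the 3 genes lower, beside 10.0% of all genes, and 0 were higher (0 at an unadjusted p under 0.05, limma). With relative values 2 were higher and 2 lower, beside 7.31% and 7.25% of all genes. ERAP1 (−0.53), PSMB8 (−0.41), PSME1 (−0.33) and IRF1 (−0.16) did not pass. Between the XG1 doses 0 of 25 were called by limma on either scale, with 0 at an unadjusted p under 0.05, IRF1 standing at −0.19, PSMB8 at −0.13 and ERAP1 at 0.098. NLRC5, under 1 FPKM, was not tested in XG1.

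The difference between the lines' responses reached 12 of 30 listed genes at 1000 nM, all higher in XG1 minus AMO1, beside 32.8% of all genes. Relative values gave 4 higher and 5 lower, beside 8.46% and 8.21%. MICB (1.90, relative 1.20), PSMB10 (1.62, relative 0.78), THOP1 (1.59, relative 0.78) and HSPA5 (1.48, relative 0.64) differed on both scales, and PSMB8 on the deposited scale alone (1.01; relative 0.18). Relative values of IRF1 (−1.0) and ERAP1 (−0.86) were lower in XG1 minus AMO1. NLRC5 (−0.70) is in that count, but it was under 1 FPKM in every XG1 library, so its value carries the AMO1 change alone. At 100 nM MICB (1.30, relative 1.06) and THOP1 (0.78, relative 0.51) differed on both scales, the 2 genes higher on the deposited scale, beside 5.37% of all genes. PSMB10 was also higher on the relative scale (0.48; deposited 0.75) and ERAP1 lower (−1.0, limma adjusted p = 0.0151; deposited −0.76), making 3 higher and 1 lower, beside 5.93% and 3.63% of all genes. PSMB8 (0.38), NLRC5 (−0.17) and IRF1 (−0.46) passed on neither scale.

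**Figure D5:**
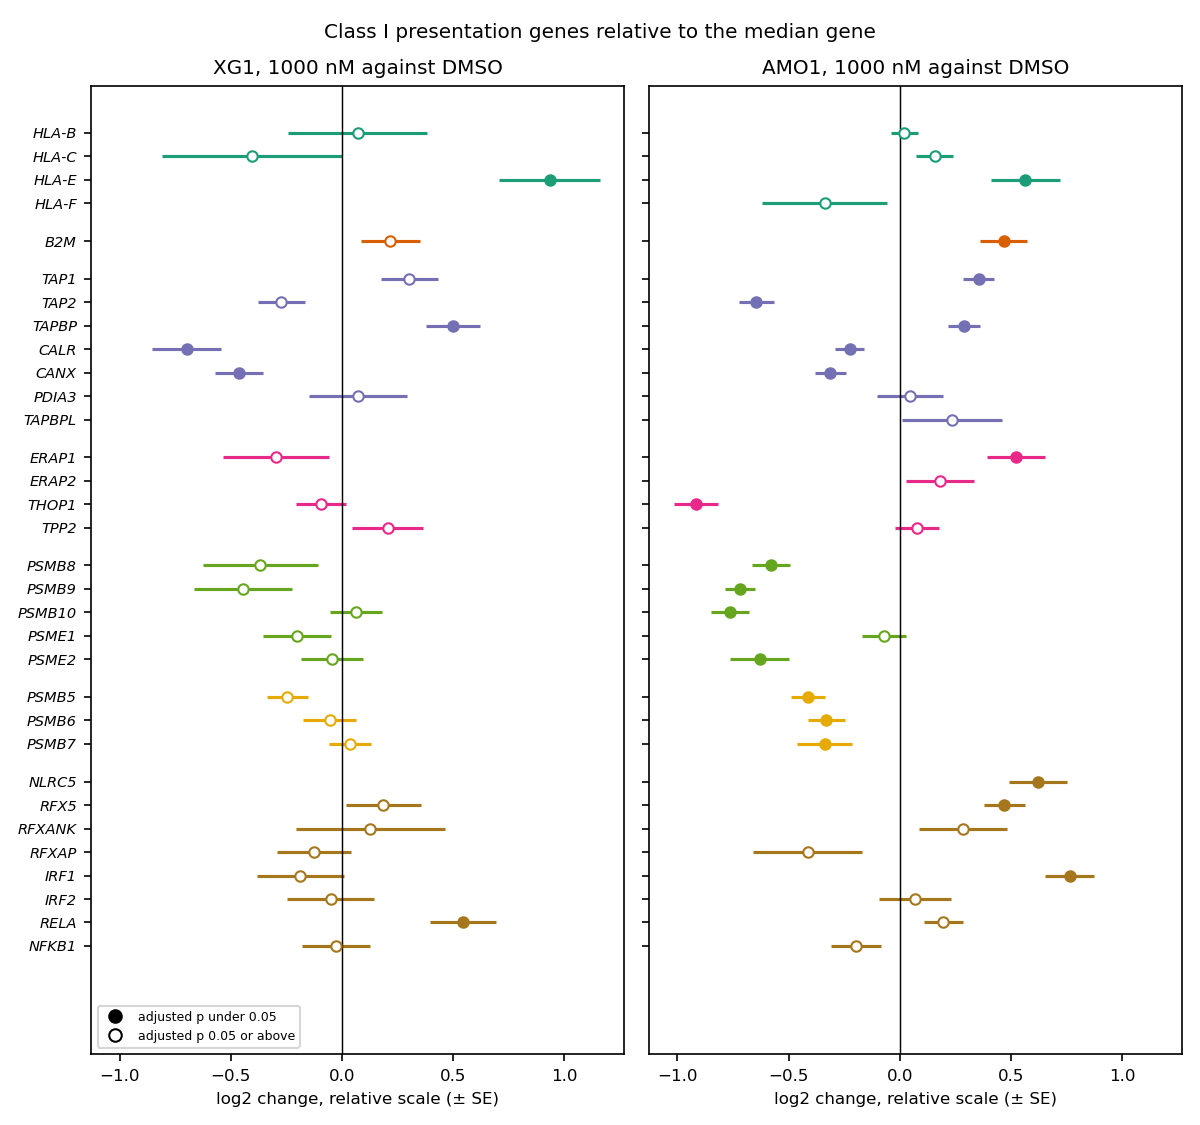
Change at 1000 nM against DMSO on the relative scale (log2, points with SE, n = 3 libraries a group) for members and other class I genes, in XG1 and AMO1, coloured by role. Filled points passed an adjusted p of 0.05. In AMO1 the proteasome genes lie left of 0 while IRF1, NLRC5 and the members HLA-E, B2M and TAP1 lie right of it.

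Within AMO1, Pearson's r of each member with the mean of the others ran from 0.73 for HLA-E to 0.98 for HLA-B. The genes most like the members' mean were MRPL57, CHCHD10, ACTN4, TACO1 and MAGEH1, with r from 0.993 to 0.996 over 9 libraries that share their dose groups and the falling total. In XG1 r of a member with the mean of the others ran from −0.29 for PSMB9 to 0.54 for TAP1. The genes most like their mean were TRMU, NOC2L, HAUS1, HSPA4L and CLHC1 (r from 0.900 to 0.917).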

How the data were processed

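The deposited values are FPKM per gene and library; HISAT2 alignment to hg19 and Cuffnorm are named per the submitters' processing notes, with versions absent from the labels. Each library also lists 92 spike-in RNAs, whose summed FPKM stays level across groups, so the deposited scale behaves as one set to the spike-ins; this was read from the values, not stated. Sequencing depth is unknown, so no counting error is given. How reads from HLA alleles unlike the genome were aligned is not recorded.

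limma 3.58.1 (R 4.3.3) was fitted to log2(FPKM + 1) with a mean-dependent prior variance, on the 9 libraries of a line, or on all 18 for comparisons between lines. A gene was tested where 3 or more of the fitted libraries reached 1 FPKM, and p-values were adjusted by Benjamini-Hochberg over all of them. The relative scale divides FPKM by median-ratio size factors. Ratios within a library were compared by exact permutation tests over libraries. Scripts used Python 3.11.15 and were tested on simulated data.

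Every member is named in every comparison where it was tested. Of 35 other class I genes, PSMB8, ERAP1, NLRC5 and IRF1 are named wherever tested, with others by adjusted p. A further gene of the list is not reported here. Members and lists were chosen with earlier results of these data known. Alternatives were the relative scale, a pseudocount of 0.1, no filter, a replicate block, another set of libraries or prior in the fit, and leaving out each library. Whether replicate numbers pair the samples is not stated in the labels. Over 18 pairs of same-numbered libraries the correlation of deviations from the group means ran from −0.178 to 0.157, with 3 over 0.1. With 3 libraries a group, such low values cannot exclude pairing.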

Additional observations from a re-analysis of the deposited data

Results flagged for a closer look

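The response to 1000 nM differed between the lines for 6 members by a test of that difference (limma, XG1 minus AMO1, deposited scale): HLA-E by 1.16, HLA-F by 1.20, TAP1 by 0.75, TAP2 by 1.13, TAPBP by 0.99 and PSMB9 by 1.06. On the relative scale the same differences were 0.29 for HLA-E, 0.30 for HLA-F, −0.10 for TAP1, 0.34 for TAP2, 0.16 for TAPBP and 0.23 for PSMB9, of which TAP2 alone passed. HLA-F was under 1 FPKM in every XG1 library, so its value carries the AMO1 change alone. The median gene differed by 0.55 on the deposited scale and by −0.064 on the relative scale.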

How the results depend on the processing

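All 9 members stayed lower in XG1 than in AMO1 under every alternative run. Counts of members called moved as follows. On the relative scale there were 2 in XG1 at 1000 nM (against 1), 1 in XG1 at 100 nM (against 0), 5 in AMO1 at 100 nM (against 2), 1 between the AMO1 doses (against 2) and 1 for the line difference at 1000 nM (against 6). With no filter there were 0 in XG1 at 1000 nM and 1 between the AMO1 doses; with all 18 libraries in one fit, 2 and 4. Relative-scale counts without AMO1 1000 nM replicate 2, chosen after seeing the data, were 1 between the AMO1 doses and 0 for the line difference. Leaving out 1 library at a time gave 0 to 0 members in XG1 at 1000 nM, 5 to 9 in AMO1 at 1000 nM, 0 to 2 in AMO1 at 100 nM, 0 to 5 between the AMO1 doses and 4 to 7 for the line difference at 1000 nM.

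Signs turned on the relative scale for 24 member values, as its construction allows where the median gene shifts. In XG1 these were HLA-B 0.072 at 1000 nM, and HLA-C 0.073 and B2M 0.067 at 100 nM. In AMO1 at 1000 nM they were HLA-B 0.020, HLA-C 0.16, HLA-E 0.57, B2M 0.47, TAP1 0.35 and TAPBP 0.29, and at 100 nM HLA-C 0.036, HLA-E 0.29, B2M 0.32, TAP1 0.42 and TAPBP 0.29. Between the AMO1 doses they were HLA-B 0.082, HLA-C 0.12, HLA-E 0.27, B2M 0.15 and TAPBP 0.0036. For the line difference they were HLA-C −0.57, B2M −0.29 and TAP1 −0.10 at 1000 nM, and HLA-C −0.0052 and TAP1 −0.10 at 100 nM. Leaving out single libraries turned uncalled values: HLA-B (−0.26 to 0.15) and B2M (−0.039 to 0.098) in XG1 at 1000 nM, HLA-C in XG1 at 100 nM (−0.47 to 0.20), TAP1 between the XG1 doses (−0.12 to 0.028) and in AMO1 at 100 nM (−0.094 to 0.081), HLA-C in the line difference at 1000 nM (−0.096 to 0.56) and 100 nM (−0.069 to 0.60), and B2M there at 100 nM (−0.13 to 0.10). The cause was not tested.

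A replicate block left all 78 member values on their side of the threshold, with 7 called in AMO1 at 1000 nM, and lowered the count over all genes between the AMO1 doses to 1461 from 2482. With no filter the counts over all genes were 1153 in XG1 at 1000 nM (against 1994), 674 at 100 nM (against 1474), 1944 in AMO1 at 100 nM (against 3386), 521 between the AMO1 doses, 9 between the XG1 doses (against 46) and 15163 for XG1 against AMO1 (against 8292). The relative scale gave 627 between the AMO1 doses, 115 between the XG1 doses, and 2132 at 1000 nM (against 4390) and 1223 at 100 nM (against 797) for the line difference. All 18 libraries in one fit gave 94 between the XG1 doses. Since depth is not known, whether low XG1 levels of HLA-C and HLA-F lie above counting noise cannot be said.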
